A study of Mus musculus with 6 samples.

Results

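The genes of voltage-gated sodium channels and of the proteins that hold these channels in the axon were followed across the cell classes of the prelimbic cortex, as 9 of the 32285 genes counted. They were chosen by name: the pore-forming alpha subunits Scn1a, Scn2a, Scn3a and Scn8a, the auxiliary beta subunits Scn2b, Scn3b and Scn4b, the anchoring protein Ank3 (ankyrin-G) and the intracellular channel partner Fgf14. Nuclei came from the prelimbic part of the medial prefrontal cortex (PL mPFC) of male C57BL/6 mice, and 6 libraries were sequenced, each pooled from 3 males that had different mothers. Run males were raised until weaning by dams that had a running wheel in the cage after birth, and Sed males by sedentary dams in standard cages. From weaning, males were group-housed (GH) or kept in social isolation (SI). In cohort 1, 1 Run GH and 1 Sed GH library were made from males that had been through tube tests and had been picked by their rank in their own group. The paper describes these Run and Sed males as ranked top and bottom, so rank may go with Run and Sed in cohort 1. In cohort 2, 1 library of each of the 4 combinations of Run or Sed with GH or SI was made from males with no behavioral testing. The sample labels give postnatal day 21 as the age, which in the paper is the day of weaning. The paper describes the males used for both cohorts as adults of about 4 months. No genotype differed between the groups, and a library is the smallest unit that can be compared.

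Voltage-gated sodium channels open when the membrane depolarizes and carry the inward current of the action potential. Alpha subunits form the pore, beta subunits alter gating and adhere to other proteins, and ankyrin-G tethers the channels to the spectrin skeleton of the axon initial segment, where spikes start, and of the nodes of Ranvier. Scn1a encodes Nav1.1, known in cortex from fast-spiking PV interneurons, Scn2a encodes Nav1.2 and Scn8a encodes Nav1.6, which are the main channels of the pyramidal axon, and Scn3a encodes Nav1.3, which is most abundant in the fetal brain. Fgf14 binds the carboxyl end of the alpha subunits at the initial segment.

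Between 4997 and 9936 nuclei per library were kept, with median depths of pyramidal nuclei between 1693 and 6815 unique molecular identifiers (UMIs, counted RNA molecules). Of these, the 104 to 302 unnamed nuclei a library and the vascular nuclei of cohort 1 entered no class sum. Pyramidal nuclei that no layer class could be given to entered the sum of all pyramidal nuclei only. They numbered 764 (Run) and 313 (Sed) in cohort 1 and 1 to 121 a library in cohort 2. Most of those of cohort 1 lay in a cluster of 1061 nuclei. It scored 0.829 for layer 2/3 and 0.825 for the mid-layer class. Layer classes may thus differ in make-up between cohorts, and the part of this was not tested. Clusters were made without the 9 genes and without the other channel and axon genes counted below, so that these genes did not choose the nuclei, and each cluster was named from markers, so that "PV" stands for PV-like nuclei and likewise for the other classes. In every library the 8 PV markers summed to 3123 to 3657 CPM (counts-per-million: UMIs of a gene as a part of all UMIs summed over the class in a library) in PV nuclei and to 661 to 806 CPM in SST nuclei, although the PV marker Pthlh had a median of 0 in PV nuclei. Pyramidal markers reached 1278 to 2159 CPM in PV nuclei and 1877 to 3387 CPM in oligodendrocytes, against 3586 to 4635 CPM in pyramidal nuclei, so each class also held RNA of pyramidal type, whose part in the results below was not tested beyond the subtraction named there. Of the vascular and leptomeningeal class (VLMC, 12 to 61 nuclei a library), the defining markers Dcn and Lum had a median of 0. The cohort 1 libraries stood apart from the cohort 2 libraries: in pyramidal nuclei, genes longer than 100 kb took 66.6% and 63.8% of the UMIs in cohort 1 and 54.1% to 54.9% in cohort 2, the nuclear RNA Malat1 took 2.73% and 3.05% against 9.30% to 11.8%, and mitochondrial genes took 0.0317% and 0.0135% against 0.111% to 0.290%. Any pair of libraries shared 5 to 22 cell barcodes.

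The 3 alpha subunit genes Scn1a, Scn2a and Scn3a lie on chromosome 2 (mm10), Scn3a at 65457118 to 65567627 on the minus strand, Scn2a at 65620771 to 65767447 on the plus strand and Scn1a at 66270778 to 66440840 on the minus strand. Scn8a is on chromosome 15 at 100869858 to 101045938 (plus strand). All 3 beta subunit genes are on the plus strand of chromosome 9, Scn3b at 40269217 to 40291618, Scn2b at 45117782 to 45130070 and Scn4b, the next of them, at 45138395 to 45154152. Ank3 spans 628.7 kb of chromosome 10 (69398773 to 70027438, plus strand) and Fgf14 spans 699.2 kb of chromosome 14 (123977907 to 124677127, minus strand). Gene lengths run from 12.3 kb for Scn2b upward, and since intronic UMIs were counted, levels are compared between genes only as CPM per kb of gene. Genes on the opposite strand overlap Scn1a (Gm13630, 1745 UMIs in the neuron sums), Scn3a (Gm13595, 40 UMIs), Scn2b (Gm10684, 77 UMIs) and Fgf14 (1700024B18Rik, 2605 UMIs, and Gm28932, 5 UMIs), and the kit used keeps the strand.

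RefSeq start-site windows (GRCm38.p6, 250 bases before and 50 after a start) were at hand for 6 of the 9 genes. The 250 bases before the start of Scn1a and before the upstream start of Scn2a are shown because these genes had opposite patterns in PV and SST nuclei below. Capitals mark CG dinucleotides.
Scn1a, chr2:66440838-66441087, minus strand: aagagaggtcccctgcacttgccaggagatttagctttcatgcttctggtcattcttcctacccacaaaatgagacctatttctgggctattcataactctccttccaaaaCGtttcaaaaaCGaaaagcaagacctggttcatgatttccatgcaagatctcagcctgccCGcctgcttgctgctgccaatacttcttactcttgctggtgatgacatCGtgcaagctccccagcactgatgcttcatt
Scn2a, chr2:65620519-65620768, plus strand: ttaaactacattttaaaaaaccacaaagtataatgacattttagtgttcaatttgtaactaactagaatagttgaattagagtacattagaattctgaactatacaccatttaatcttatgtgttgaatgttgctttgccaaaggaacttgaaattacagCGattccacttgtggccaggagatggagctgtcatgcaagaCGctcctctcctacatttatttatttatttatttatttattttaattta
The Scn1a window held 5 CG dinucleotides and the Scn2a window 3, against a median of 7 over 32851 mouse windows. The other RefSeq start of Scn2a had 9. Among the beta subunits, the Scn2b window held 2 (38.3% G and C) and the Scn4b window 26 (66.3% G and C), and 16.9% of all windows held at least as many as Scn4b. The Scn8a windows held 38 and 12 and the Fgf14 window, which belongs to a start inside the gene, held 12. On either strand, the letters TTCAGCACC and GGACAGC, the parts of the element bound by the neuronal repressor REST, were in none of the members' windows and in 0.371% and 6.56% of all windows, and CACGTG was in none of theirs and in 7.15% of all. GGGCGG was in the Fgf14 window (35.7% of all windows) and TATAAA in 1 of the Scn2a windows (13.6% of all).

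The mix of alpha subunits in PV nuclei differed from that in pyramidal nuclei. Per kb of gene, Scn2a (2.43 CPM per kb, median of 6 libraries) and Scn8a (2.05) stood above Scn1a (1.05) and Scn3a (0.972) in pyramidal nuclei, whereas in PV nuclei Scn1a (2.72) and Scn8a (2.16) were above Scn2a (1.61) and Scn3a (0.490). The order of Scn1a and Scn8a in PV nuclei changed between libraries. From here on levels are CPM within a gene. Scn1a ranged from 392 to 504 CPM over the 6 libraries in PV nuclei (median 462) and from 295 to 389 CPM in the next class, NPY nuclei (median 322), so the ranges of these neighbors did not overlap. SST nuclei had 163 to 268 CPM of Scn1a (median 238) and pyramidal nuclei 168 to 219 CPM (median 179). Among pyramidal classes Scn1a was highest in layer 5 nuclei with Chst8 and Npsr1, at 231 to 298 CPM. Nuclei with at least 1000 UMIs were each thinned to 1000 UMIs, which left out nuclei of Sed GH of cohort 2 only. There 148 of 201 PV nuclei, 4272 of 4896 pyramidal nuclei, 37 of 97 astrocytes and 68 of 86 microglia remained. A Scn1a UMI was then found in 30.4% to 38.4% of PV nuclei (median 34.9%) and 14.5% to 19.5% of pyramidal nuclei (median 15.6%). In astrocytes, the class with the lowest Scn1a level, it was found in 1.54% to 10.1% (median 4.46%). Microglia, another class that should lack the gene, had 6.67% to 17.6% (median 13.5%), so the PV share lay above both while the pyramidal share overlapped that of microglia. Without thinning the medians were 76.3% in PV nuclei, 47.3% in pyramidal nuclei, 10.2% in astrocytes and 41.3% in microglia.

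Scn2a had similar levels in most neuronal classes, and the order at the top was not resolved. Near-projecting layer 5 nuclei had 371 to 416 CPM of Scn2a (median 401) and layer 6 nuclei 310 to 403 CPM (median 384), followed by NPY nuclei at 284 to 390 CPM (median 379) and VIP nuclei at 343 to 550 CPM (median 366), and these ranges overlapped. Over all pyramidal nuclei Scn2a had 316 to 369 CPM, against 205 to 311 CPM in PV nuclei. Microglia had 273 to 303 CPM of Scn2a, so the PV level did not stand above that of a non-neuronal class. Scn8a had its highest median in layer 5 nuclei with Chst8 and Npsr1 (395 to 572 CPM, median 416), above PV nuclei (307 to 486 CPM) in 6 of 6 libraries with overlapping ranges. In both libraries of cohort 1, however, layer 2/3 nuclei had more Scn8a than that class (533 against 529 CPM and 599 against 572 CPM). SST nuclei had the lower Scn8a level of 201 to 386 CPM, which overlapped that of microglia (192 to 366 CPM). Scn3a had its highest neuronal level in near-projecting nuclei, 133 to 187 CPM (median 160), and its PV level was 34.7 to 68.7 CPM (median 54.2).

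Beta subunits were measured at lower counts. Scn3b, whose product modulates the recovery of the channels, was highest in layer 2/3 nuclei at 41.9 to 73.8 CPM (median 63.9) and lowest of all 16 classes in PV nuclei at 8.58 to 18.8 CPM (median 14.0), overlapping astrocytes (6.37 to 25.1 CPM). SST nuclei had 31.7 to 48.5 CPM of Scn3b, so PV and SST did not overlap. After thinning, 6.04% of layer 2/3 nuclei and 1.61% of PV nuclei had a Scn3b UMI (medians). The PV share did not stand above that of astrocytes (median 1.61%), and the part of free RNA in it was not tested. Scn4b, which gives the resurgent current in fast-firing neurons, was read from few molecules: 472 UMIs over all pyramidal nuclei, of which 135 were in layer 5 nuclei with Chst8 and Npsr1 and 108 in layer 6. In the former class it had 3.21 to 9.17 CPM (median 7.52), in near-projecting nuclei 1.49 to 9.60 CPM and in layer 6 2.11 to 5.98 CPM, with overlapping ranges. PV nuclei gave 18 Scn4b UMIs in all 6 libraries and SST nuclei 8, which is too few to compare them. Scn2b, which is linked to the alpha subunit by a disulfide bond, had 10.4 to 25.9 CPM in pyramidal nuclei. In barcodes with 5% to 60% of the UMIs required of a nucleus, taken as background droplets, Scn2b was higher than in the nuclei themselves, at 97.6 to 106 CPM in cohort 2 and 21.5 and 12.9 CPM in cohort 1. Scn4b (3.49 to 10.3 CPM there and 2.21 to 3.23 CPM in pyramidal nuclei) and Scn3b (39.6 to 64.3 and 34.1 to 47.9 CPM) were also higher in the droplets in 6 of 6 libraries. Scn2a was higher there in 5 of 6, at 367 to 476 CPM against 316 to 369 CPM.

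The axonal partners had the highest counts. Fgf14 took 2789 to 4092 CPM in pyramidal nuclei (median 3116), 3378 to 4522 CPM in NPY nuclei (median 3791), 3222 to 4036 CPM in SST nuclei and 2164 to 2966 CPM in PV nuclei. NPY, near-projecting and layer 2/3 nuclei followed each other at the top with overlapping ranges. The PV level of Fgf14 overlapped that of microglia (2125 to 3210 CPM). Ank3 had 1455 to 1947 CPM in pyramidal nuclei and 1156 to 1668 CPM in PV nuclei. Its highest level of all was in oligodendrocytes, 1955 to 2879 CPM (median 2254), above near-projecting nuclei (1841 to 2101 CPM) in 6 of 6 libraries although the ranges overlapped. Per kb of gene Fgf14 (median 4.46) stood above all alpha subunits in pyramidal nuclei. The median of Ank3 there (2.52) was close to those of Scn2a and Scn8a, and the order of these genes changed between libraries.

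**Figure D1:**
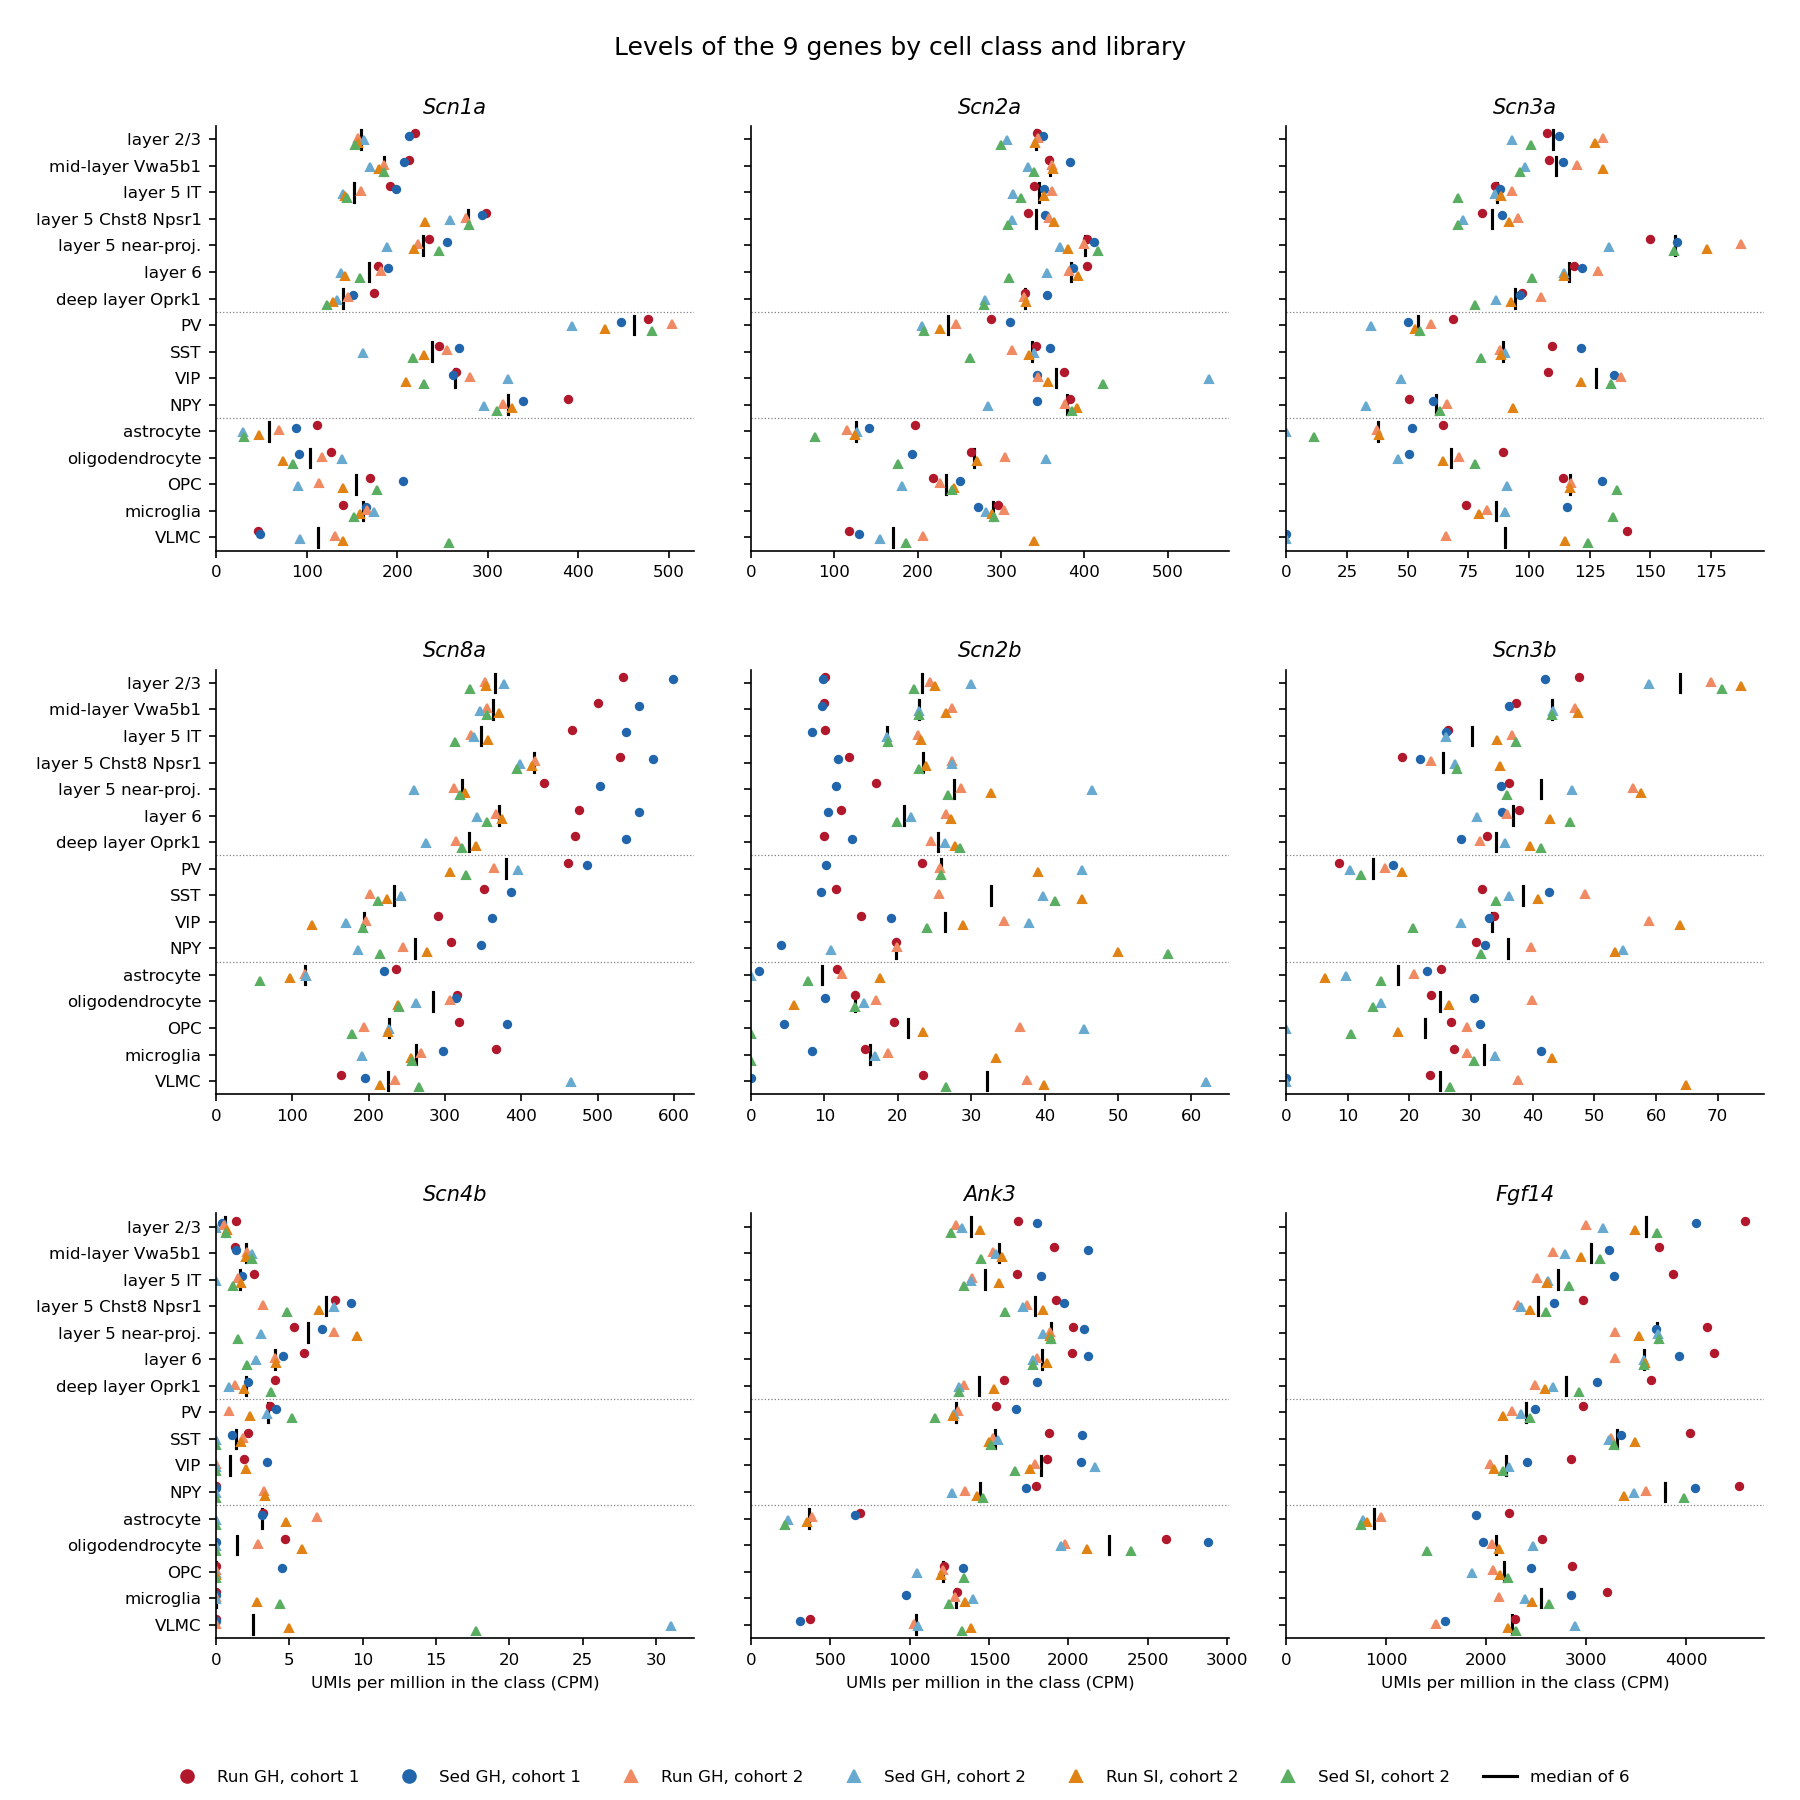
Level of each of the 9 genes in CPM (counts-per-million of the class sum) in 16 cell classes, each panel 1 gene with an axis that starts at 0. Points are the 6 libraries (circles cohort 1, triangles cohort 2) and bars the median; the Scn1a points of PV nuclei lie above those of every other class, while the Ank3 median is highest in oligodendrocytes.

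Inhibitory nuclei as a whole were set against pyramidal nuclei, each library contributing both sums. The inhibitory sum also held nuclei of no named interneuron class. They were 50 of 868 in the Run GH library of cohort 1, 74 of 516 in the Sed SI library and 1 to 9 elsewhere. Their clusters were led by Rarb, Rgs9 and Drd2 (cohort 1) and by Lgr6, Lgr5 and Pbx3 (cohort 2). In the first library the log2 CPM ratio of Scn4b was 0.94, against -0.81 to -0.27 elsewhere. In the second that of Scn3a was -0.0075, against -0.67 to -0.18 elsewhere. The part of these nuclei was not tested. Scn1a was higher in inhibitory nuclei (343, 336, 357, 284, 313 and 320 CPM, given first for the Run and Sed GH pair of cohort 1, then for the GH pair and the SI pair of cohort 2, each with Run before Sed) than in pyramidal nuclei (219, 209, 183, 171, 168 and 176 CPM in the same order), and the groups did not overlap. Its log2 fold change was 0.65 ± 0.06 (n = 6 libraries, edgeR adjusted p = 4.2e-08). Here and below, ± gives a standard error (SE) derived from the edgeR F statistic, so it is no separate measure of spread. Scn8a went the other way and was lower in inhibitory nuclei in 6 of 6 libraries, with a log2 fold change of -0.60 ± 0.05 (edgeR adjusted p = 8.4e-08). Lower too were Scn3b (-0.56 ± 0.09), Scn3a (-0.47 ± 0.07), Fgf14 (-0.32 ± 0.05) and Scn2a (-0.31 ± 0.06), each in 6 of 6 libraries. Not every subclass was lower. For Scn8a the PV median (380 CPM) lay above the pyramidal median, and SST, VIP and NPY lay below. For Fgf14, NPY (3791 CPM) and SST (3310 CPM) lay above and PV and VIP below. For Scn2a, NPY (379 CPM) and VIP (366 CPM) lay above and PV and SST below. For Scn3a, VIP (128 CPM) lay above and PV, SST and NPY below. In all, 8 of the 9 genes passed the test, 2 higher and 6 lower, where 51.3% of the 15624 genes tested passed (26.3% higher and 24.9% lower). The shares were not compared by a test. Scn2b was higher (0.29 ± 0.10, edgeR adjusted p = 0.024) but lost its call in 5 of 15 alternatives. Ank3 (-0.18 ± 0.05, edgeR adjusted p = 0.011) had higher CPM in 3 libraries and lower CPM in 3, with mean log2 CPM ratios of 0.0018 in cohort 1 and -0.04 in cohort 2, and with scaling by total UMIs its fold change was -0.03 (adjusted p = 0.68), so no difference is read for it. Scn4b had -0.06 ± 0.27 and did not pass. That scaling moved the median of all genes from 0.03 to 0.18 and the genes called from 4114 higher and 3897 lower to 6068 higher and 2984 lower. The directions of Scn1a, Scn8a, Scn3b, Scn3a, Fgf14 and Scn2a were the same in both cohorts, with mean log2 CPM ratios of 0.66 and 0.86 for Scn1a, -0.44 and -0.45 for Scn8a and -0.10 and -0.19 for Scn2a (cohort 1 and cohort 2).

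Among the other sodium channel genes, 6 of the 10 tested (of 13 listed) were higher and 3 lower in inhibitory nuclei, with a list median of 0.43 against 0.03 over all genes. The intracellular partners Fgf13 (3.58 ± 0.10) and Fgf11 (3.33 ± 0.19) had the largest log2 fold changes, opposite in sign to that of Fgf14, and Fgf12 had 0.52. The leak channel subunits Unc79 (-0.55) and Unc80 (-0.50) and the sodium-sensing channel Scn7a (-1.30 ± 0.19) were lower. Among pyramidal classes Scn7a stood out in mid-layer nuclei with Vwa5b1 (median 43.3 CPM). The other pyramidal classes had medians of 0.941 to 9.82 CPM, beside 4.98 CPM in inhibitory and 17.0 CPM in VIP nuclei. Of 34 genes of the axon initial segment and the node, 9 were higher and 17 lower (median -0.16). The erythrocyte-type ankyrin Ank1 was higher by 2.43 ± 0.08 on the log2 scale and the juxtaparanodal adhesion molecule Cntnap2 by 1.80 ± 0.06, while the adhesion molecule Nrcam (-1.0 ± 0.06), the scaffold Dlg1 (-1.52 ± 0.09) and the initial segment protein Trim46 (-0.78) were lower.

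PV and SST interneurons differed in 7 of the 8 genes that could be tested (Scn4b had too few UMIs), where 26.2% of 10975 genes passed (14.2% higher and 12% lower in PV). Both Nav1.1 and Nav1.6 genes were higher in PV nuclei. Scn1a had 476, 447, 504, 392, 429 and 482 CPM in PV and 246, 268, 255, 163, 230 and 217 CPM in SST nuclei, again with no overlap, and a log2 fold change of 0.96 ± 0.07 (edgeR adjusted p = 3.6e-15). Scn8a was higher by 0.53 ± 0.07 (edgeR adjusted p = 1.0e-07), with mean log2 CPM ratios of 0.36 in cohort 1 and 0.66 in cohort 2. Lower in PV were the subunits Scn3b by -1.46 ± 0.18 (edgeR adjusted p = 5.9e-09), Scn3a by -0.79 ± 0.11 (1.4e-07) and Scn2a by -0.37 ± 0.07 (6.2e-05). Fgf14 (-0.49 ± 0.05) and Ank3 (-0.28 ± 0.05) were lower as well. Each of these 7 genes had the same direction in 6 of 6 libraries and kept its call in every alternative in which it was tested. For each of them the lower of the PV and SST levels overlapped that of microglia or lay below it. The part of carried-over RNA in these folds was not tested beyond the subtraction. Scn2b had 0.07 ± 0.18 and did not pass. Since the PV share of Scn3b did not stand above that of astrocytes, the size of its fold is not resolved. It lay between -2.08 and -1.37 over the alternatives. In the list of other channel genes 5 of 8 tested were higher and 0 lower in PV (list median 0.42), among them Scn9a (1.22), Fgf13 (0.97) and Fgf12 (0.96). Of the 34 initial segment and node genes, 8 were higher and 7 lower (median 0.05), the axonal potassium channels Kcna1 (1.30) and Kcna2 (0.80) being higher and the adhesion molecule Chl1 (-1.24) lower.

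Deep layer 6 nuclei differed from upper layer 2/3 nuclei in 4 of the 9 genes, where 42.2% of 14459 genes passed (18.8% higher and 23.4% lower in layer 6). Scn4b had 25, 32, 22, 3, 21 and 5 UMIs in layer 6 (2.11 to 5.98 CPM) and 18, 3, 4, 0, 5 and 3 UMIs in layer 2/3 (0 to 1.38 CPM), which do not overlap as CPM, and its log2 fold change was 2.48 ± 0.29 (edgeR adjusted p = 9.9e-07). With the background droplets subtracted, layer 2/3 had a median of 0.0794 CPM of Scn4b and layer 6 3.63 CPM. Ank3 was higher in layer 6 by 0.37 ± 0.06 (edgeR adjusted p = 0.00013), 1775 to 2125 CPM against 1259 to 1801 CPM, in 6 of 6 libraries. Scn3b was lower in layer 6 by -0.63 ± 0.08 (edgeR adjusted p = 3.7e-06), with mean log2 CPM ratios of -0.30 in cohort 1 and -0.82 in cohort 2. More pyramidal nuclei were left without a layer class in cohort 1, as given above, and their part in these ratios was not tested. Scn2a was higher by 0.15 ± 0.06 (edgeR adjusted p = 0.044) and lost this call in 6 of 15 alternatives. Scn1a, Scn3a, Scn8a, Scn2b and Fgf14 had log2 fold changes between -0.11 and 0.05 and did not pass. Other channel genes were called in 3 higher and 3 lower of 9 tested, with Fgf11 at 2.67 and Scn9a at -1.51. Axonal genes were called in 13 higher and 10 lower of 34. Of these, Cntn2 (1.66) and Nfasc (0.81), which binds ankyrin-G, were higher in layer 6 and Trim46 (-0.59) lower. Oligodendrocytes had higher medians than layer 6 nuclei for Cntn2 (92.1 against 19.5 CPM) and Nfasc (699 against 281 CPM).

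**Figure D2:**
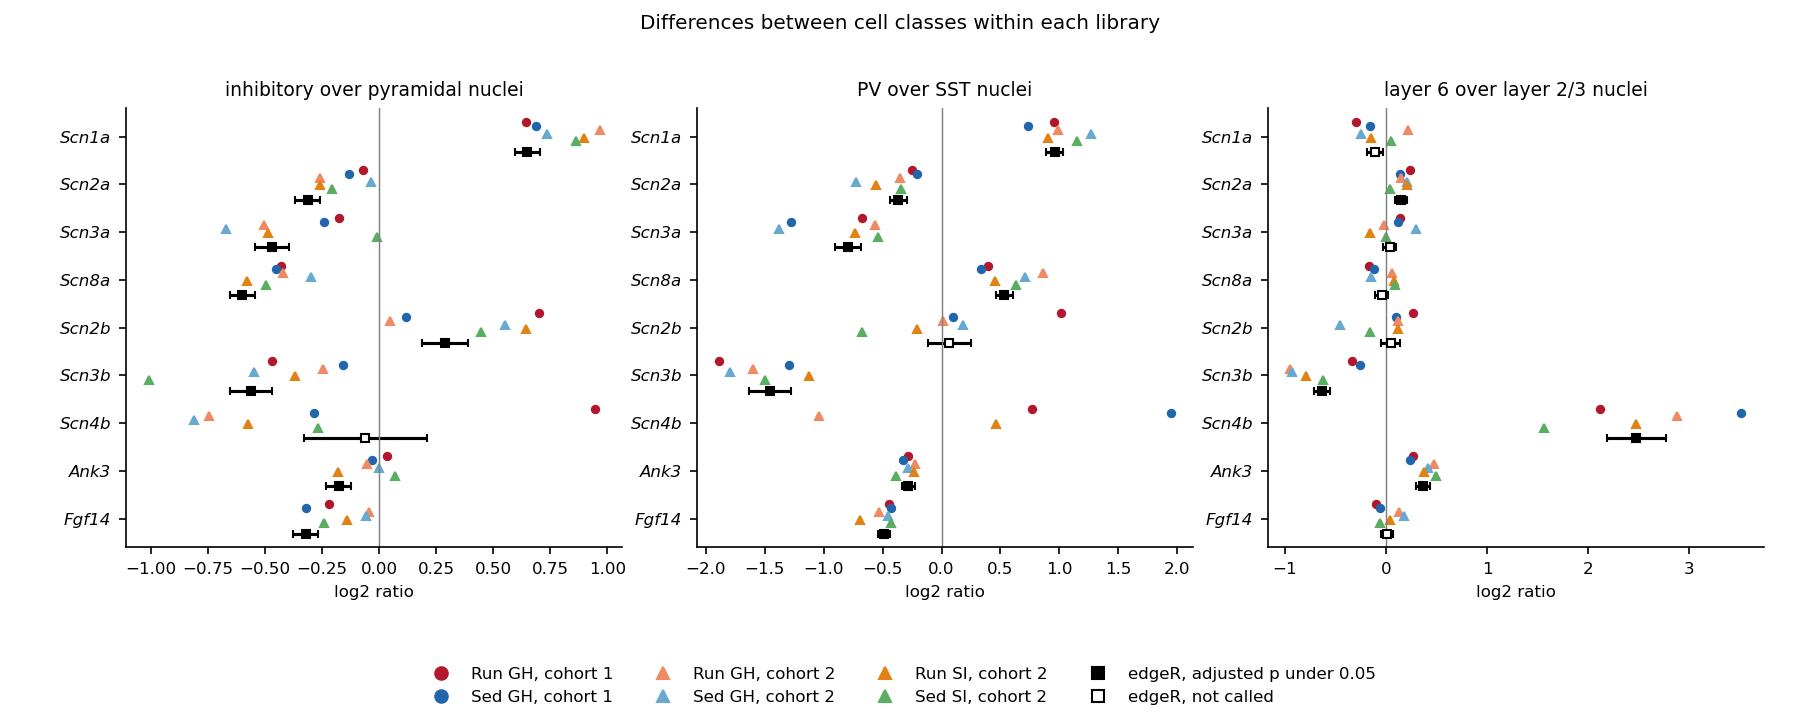
Differences between cell classes in log2 units for each gene, with small points for the log2 CPM ratio of each of the 6 libraries and squares for the edgeR log2 fold change ± SE, filled where the adjusted p was below 0.05. Scn1a and Scn8a lie above 0 and Scn3b furthest below 0 for PV against SST nuclei, and Scn4b is furthest from 0 for layer 6 against layer 2/3.

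Oligodendrocytes, the cells that myelinate axons, had higher Ank3 CPM than pyramidal nuclei. Ank3 had 2617, 2879, 1976, 1955, 2116 and 2392 CPM in oligodendrocytes, which was 129% to 164% of the pyramidal level of the same library (median 138%). A set of 8 neuron genes (Slc17a7, Rbfox3, Snap25, Syt1, Rbfox1, Csmd1, Kcnip4 and Nrg3), chosen after the values were seen to show how much neuronal RNA these nuclei held, had medians of 55.7% to 75.2% there. An Ank3 UMI was found in a median of 82.9% of thinned oligodendrocytes and 77.1% of thinned pyramidal nuclei. In oligodendrocyte precursors (OPC), Scn3a reached 90.8 to 136 CPM (median 117), which was 97.7% to 149% of the pyramidal level, while the neuron genes had medians of 24.7% to 88.9%. The OPC class was mixed. Its clusters were led by Bcas1 and Tns3 in cohort 1 and by 9630013A20Rik and Bcas1 in cohort 2, where Tns3 and Tcf7l2 were among the leading genes too, and these genes of newly forming oligodendrocytes stood beside the OPC markers Pdgfra and Vcan in both. Clustering on log-normalized values moved the cohort 2 clusters from 323 OPC and 285 oligodendrocytes to 261 and 452. Of the 6 genes with enough UMIs, 2 differed between OPC and oligodendrocytes, where 23.8% of 5923 genes passed (11.7% higher and 12.1% lower in OPC). Ank3 was lower in OPC by -0.98 ± 0.16 on the log2 scale (edgeR adjusted p = 5.4e-07), at 1044 to 1341 CPM with no overlap, and kept its call in every alternative run. Scn3a was higher by 0.71 ± 0.23 (edgeR adjusted p = 0.015) and in 6 of 6 libraries, of which Sed GH of cohort 2 rests on 2 UMIs in OPC and 3 in oligodendrocytes, but lost the call in DESeq2 (adjusted p = 0.057) and without the Sed GH library of cohort 1 (adjusted p = 0.057). Scn1a had 0.52 ± 0.22 (edgeR adjusted p = 0.070). Among axonal genes 5 of 29 tested were higher in OPC, among them Ank1 (1.83) and Cntn1 (1.04), and 5 lower, among them Cntn2 (-3.44) and Kcna1 (-1.40), while of 6 other channel genes only Fgf13 passed (0.99). These classes were small, with 24 to 102 oligodendrocytes and 21 to 142 OPC a library. Microglia had Scn1a at a median of 88.9% and Fgf14 at 80.1% of the pyramidal level, beside 66.4% to 85.2% for the neuron genes. In astrocytes Ank3 stood at 23.2% and Scn2a at 36.4%, within the 16.5% to 39.4% of the neuron genes.

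**Figure D3:**
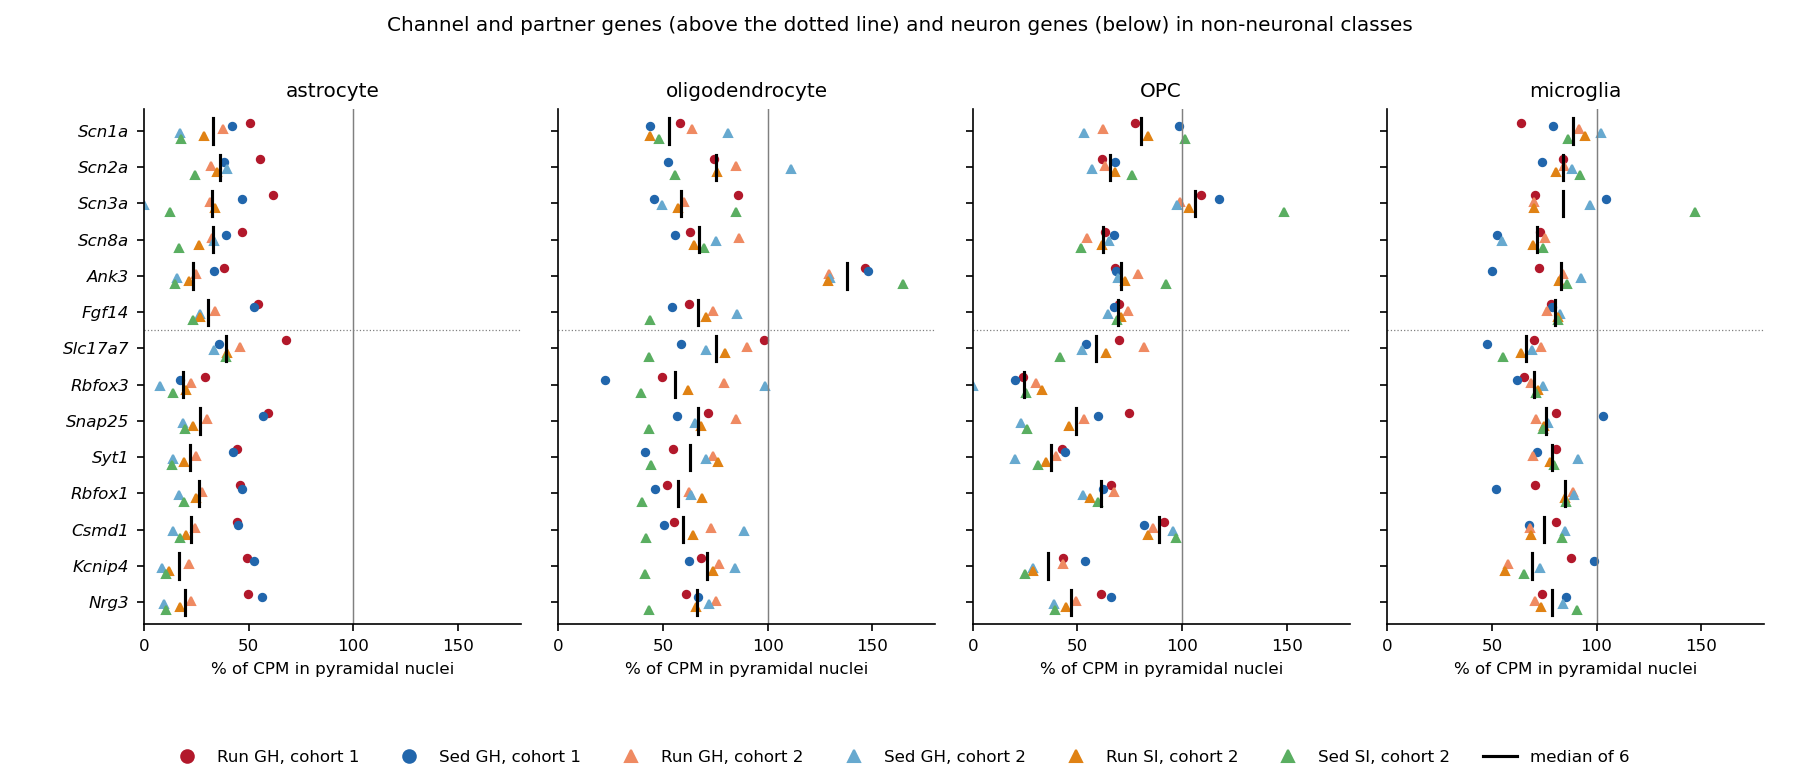
Level in 4 non-neuronal classes as a percent of the pyramidal level of the same library, for 6 of the genes and 8 neuron genes. Points are the 6 libraries and bars the median; Ank3 in oligodendrocytes (median 138%) and Scn3a in OPC (median 106%) lie above the medians of the neuron genes in those classes.

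The cohorts differed in Scn8a, Scn2b and a further 3 of the genes. In pyramidal nuclei 5 of the 9 genes passed for cohort 2 against cohort 1, where 38.2% of 17962 genes passed (20.3% higher and 17.9% lower). Scn8a had 503 and 565 CPM in cohort 1 and 355, 349, 367 and 344 CPM in cohort 2, without overlap, and a log2 fold change of -0.76 ± 0.10 (edgeR adjusted p = 0.0029). Its range was lower in cohort 2 with no overlap in 11 of 11 neuronal subclasses. Scn2b had 11.4 and 10.4 CPM in cohort 1 and 25.6, 25.6, 25.9 and 22.4 CPM in cohort 2, a log2 fold change of 1.07 ± 0.14 (edgeR adjusted p = 0.0031), and it moved with its level in background droplets, which was 21.5 and 12.9 CPM against 97.6 to 106 CPM. With those droplets subtracted the Scn2b ranges were 9.57 to 9.91 CPM and 19.4 to 22.4 CPM. Lower in cohort 2 were also Fgf14 (4092 and 3624 CPM against 2789 to 3217 CPM, -0.61 ± 0.13, edgeR adjusted p = 0.016), Ank3 (1787 and 1947 CPM against 1455 to 1644 CPM, -0.46 ± 0.10, 0.018) and Scn1a (219 and 209 CPM against 168 to 183 CPM, -0.44 ± 0.10, 0.020). Their levels in background droplets were lower in cohort 2 as well. For Fgf14 these were 3887 and 4132 against 559 to 979 CPM and for Ank3 1220 and 1362 against 484 to 719 CPM. For Scn1a they were 256 and 223 against 153 to 161 CPM and for Scn8a 385 and 403 against 245 to 280 CPM. The part of free RNA in these differences was not tested beyond the subtraction. The calls of Scn8a and Scn2b were kept in 15 of 15 alternatives, whereas those of Ank3 and Fgf14 were lost when any 1 library of cohort 2 was left out (kept in 11 of 15), and that of Scn1a also with scaling by total UMIs (10 of 15). Scn4b (-0.68 ± 0.26), Scn2a (-0.26), Scn3a (-0.20) and Scn3b (0.09) did not pass. The 4 genes that were called lower are each over 100 kb long, as are Scn2a and Scn3a, which did not pass (4 of 6 such genes called), and the share of UMIs from such genes was lower in cohort 2 as given above, the part of which was not tested. Scaling by total UMIs moved the median of all genes by 0.16, left 4 of the 9 genes called and changed the split from 3642 higher and 3223 lower to 4377 and 1879.

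In PV nuclei 3 of 8 genes passed for cohort 2 against cohort 1, all lower, where 27.1% of 10155 genes passed (14.9% higher and 12.2% lower). These were Scn2a (288 and 311 CPM against 205 to 246 CPM, -0.49 ± 0.16, edgeR adjusted p = 0.031), Scn8a (-0.43 ± 0.15, 0.045) and Ank3 (-0.41 ± 0.15, 0.044). The calls were kept in 8, 4 and 5 of 15 alternatives for Scn2a, Scn8a and Ank3, and were lost in DESeq2, after thinning and when free RNA was subtracted. Over the alternatives the smallest log2 fold changes were -0.10 for Scn2a, -0.25 for Scn8a and -0.21 for Ank3. With scaling by total UMIs 0 of them were called, the median of all genes moved by 0.13 and the split went from 1509 higher and 1242 lower to 1776 and 898. Among other channel genes of pyramidal nuclei 1 of 10 was higher and 4 were lower, from Unc80 (-0.35) to Nalcn (-0.54), with a list median of -0.38, and of 34 axonal genes 5 were higher, such as Kcna1 (0.74), and 18 lower, such as the initial segment spectrin Sptbn4 (-1.08), with a list median of -0.43. In PV nuclei these counts were 2 higher and 2 lower of 8, and 3 higher and 15 lower of 34. Cohort, tube testing, choice of males by rank and library preparation changed together and cannot be told apart.

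**Figure D4:**
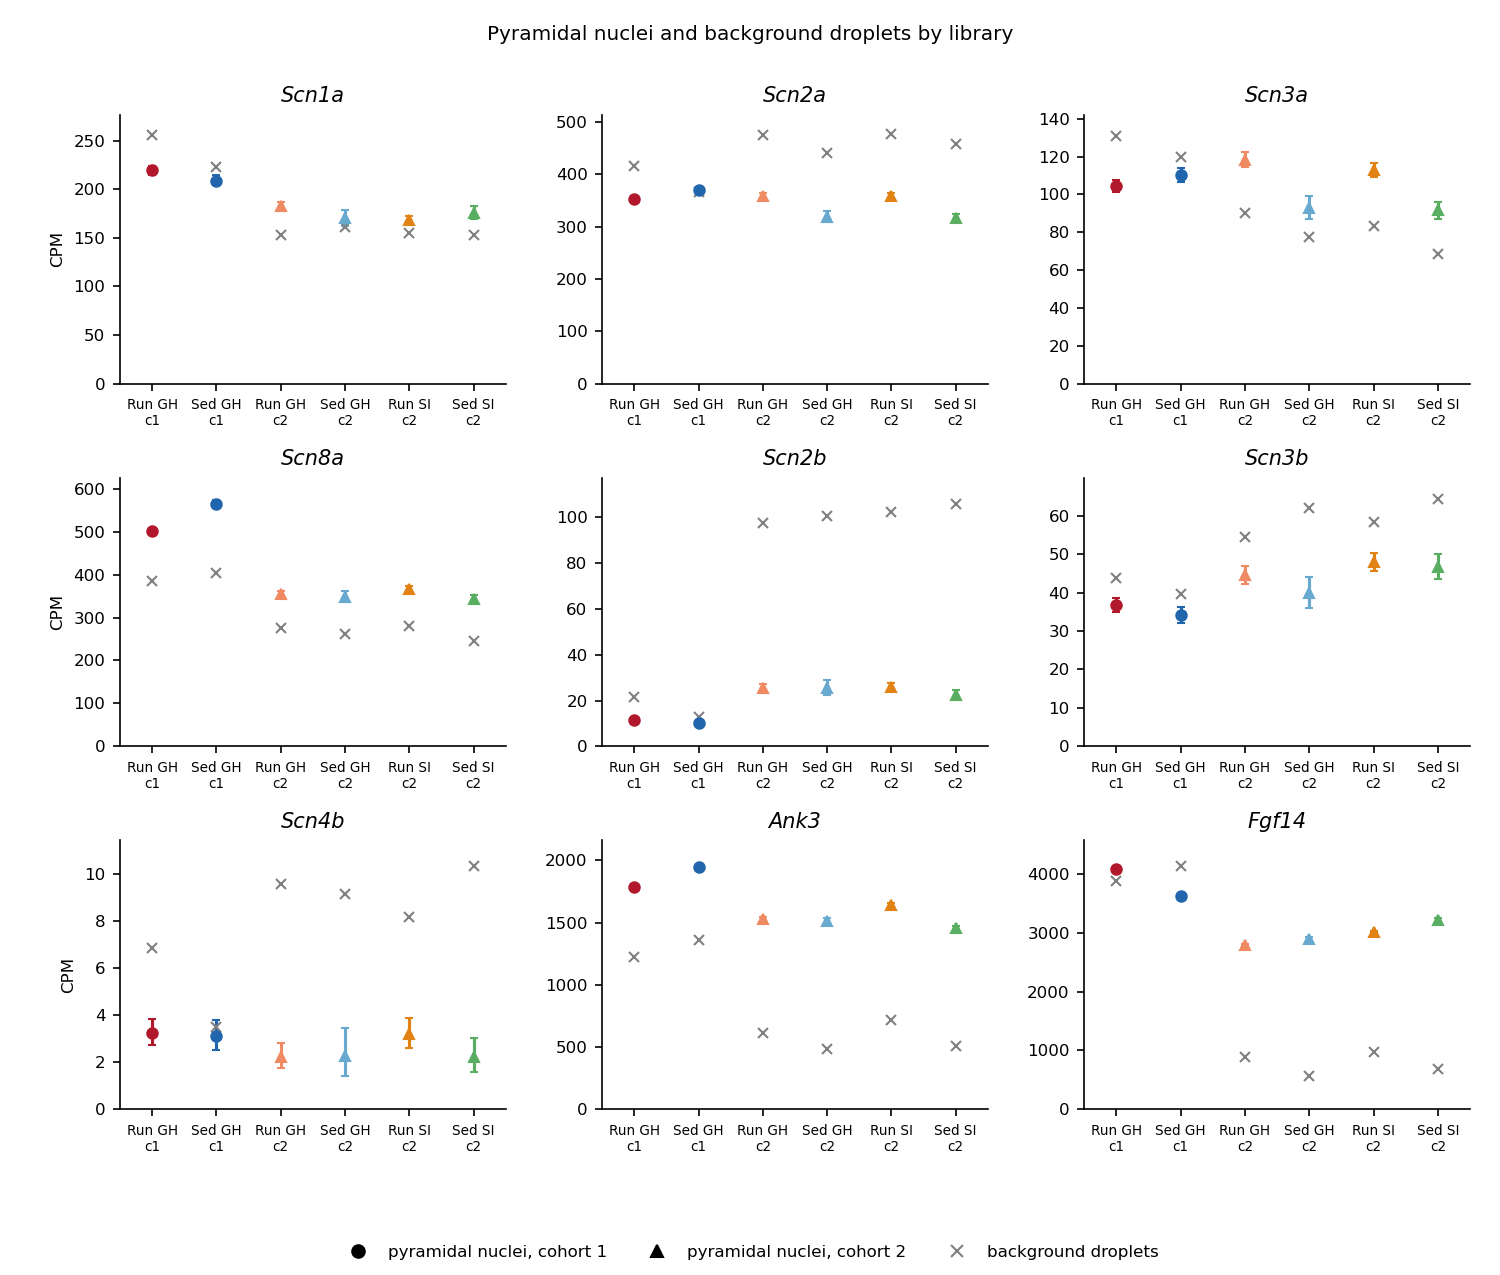
Level of each gene in pyramidal nuclei in CPM for the 6 libraries, with exact Poisson 95% intervals that cover counting error only, and grey crosses for the level in background droplets. The 2 cohort 1 libraries lie above the 4 of cohort 2 for Scn8a, Fgf14, Ank3 and Scn1a and below them for Scn2b, whose crosses stand far above the nuclei in cohort 2.

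The study asked whether the running of the dam changed the cortex of the offspring. None of the 9 genes passed for Run against Sed in pyramidal nuclei (edgeR, 0 also at an unadjusted p under 0.05, and 0 in DESeq2), where 0% of 17962 genes passed, 1339 of them having an unadjusted p under 0.05, and where DESeq2 called 44 of 10997. The largest log2 fold changes were 0.15 ± 0.21 for Scn4b and 0.14 ± 0.09 for Scn3a (edgeR adjusted p = 0.74), and the other genes had -0.07 to 0.06. Scn3a had 105 CPM in Run GH and 110 CPM in Sed GH of cohort 1. In cohort 2 it had 118 CPM against 93 CPM in the GH pair and 113 CPM against 91.6 CPM in the SI pair. Its log2 ratio of Run over Sed was thus -0.08 (95% interval -0.14 to -0.01, counting error only) in cohort 1 and 0.35 (0.24 to 0.46) and 0.30 (0.22 to 0.39) in cohort 2. Scn3a was called, at 0.23, when either library of cohort 1 was left out (edgeR adjusted p = 0.043 without Run GH and 0.040 without Sed GH), and in those fits 2895 and 2979 genes were called in all. Since the cohort term then absorbs the remaining library of cohort 1, both fits rest on the same 4 libraries of cohort 2, with 1 residual degree of freedom, and are not separate calls. Over the 11 neuronal subclasses, which share libraries, Scn3a was lower in Run in 9 in cohort 1 and higher in 10 (GH) and 9 (SI) in cohort 2. Choice by rank may go with Run and Sed in cohort 1, and the 2 cannot be told apart in the ratios of that cohort. In cohort 2 the mitochondrial share of pyramidal nuclei went with Run and Sed as well, at 0.289% and 0.290% in the Run libraries and 0.111% and 0.151% in the Sed libraries. Their Malat1 share was lower in Run (9.30% and 9.34% against 11.3% and 11.8%). In cohort 1, where Scn3a was lower in Run, both shares went the same way (0.0317% against 0.0135% and 2.73% against 3.05%). In cohort 2 the median depth of pyramidal nuclei was also higher in Run within each housing (3613 against 1693 UMIs in GH and 4277 against 3803 UMIs in SI). The part of any of these in the result was not tested.

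Fgf14 was the one gene of the 9 for which a difference between cohorts in the Run to Sed effect was called in pyramidal nuclei. It had 4092 CPM in Run GH and 3624 CPM in Sed GH of cohort 1, a log2 ratio of 0.18 (95% interval 0.16 to 0.19). In cohort 2 it had 2789 and 2889 CPM in the GH pair, -0.05 (-0.07 to -0.03), and 3016 and 3217 CPM in the SI pair, -0.09 (-0.11 to -0.08). The interaction of maternal environment and cohort was -0.38 ± 0.11 (edgeR adjusted p = 0.013, 1 residual degree of freedom), where 11.9% of 18709 genes passed, and that of Scn3a was 0.28 ± 0.14 (edgeR adjusted p = 0.21). For Fgf14 it was called in 6 of 9 alternatives. This fit takes up the 1 pair of cohort 1 exactly, so its residual degree of freedom comes from cohort 2 alone. The p-value thus holds no spread between libraries of cohort 1. In cohort 1 Fgf14 was higher in Run in 11 of 11 neuronal subclasses (log2 ratios of 0.12 to 0.27). In cohort 2 it was lower in Run in 9 of 11 in each pair. The subclasses share libraries, so these counts are not independent. In background droplets of cohort 1 the order of Fgf14 was the opposite, 3887 CPM in Run GH and 4132 CPM in Sed GH. Fgf14 spans 699.2 kb, and in pyramidal nuclei of cohort 1 genes over 100 kb took a larger share in Run (66.6%) than in Sed (63.8%). In cohort 2 this share was 54.1% against 54.9% in the GH pair and 54.6% against 54.1% in the SI pair. The part of this share in the Fgf14 ratios was not tested. Scn8a had log2 ratios of -0.17 (-0.20 to -0.14) in cohort 1 and 0.03 and 0.09 in cohort 2, without a call of the difference. For Fgf14 and Scn8a alike, choice by rank and the maternal environment cannot be told apart in cohort 1. With scaling by total UMIs the genes called for this interaction went from 814 higher and 1420 lower to 1069 and 863, the median of all genes moved by 0.13, and Fgf14 (-0.25, edgeR adjusted p = 0.10) was no longer called. Of the other channel genes 0 were called higher and 1 lower, the intracellular partner Fgf13 (-0.64), and of the 34 axonal genes 3 were called higher (L1cam, Kcnab2 and Sptan1, 0.40 to 0.57) and 3 lower (Cntnap2 at -0.50, Lgi1 at -0.43 and the potassium channel Kcnq3 at -0.35).

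Scn4b had too few UMIs to be tested in PV and SST nuclei, so 8 members were tested there. For the maternal environment none of them was called in PV nuclei (0.0886% of 10155 genes passed, 9 genes, and 8 in DESeq2). In SST nuclei none was called either (0.0799% of 10015 genes passed, 8 genes, and 3 in DESeq2), and 0 of the members had an unadjusted p under 0.05 in either class. For the interaction with cohort in PV nuclei 0.981% of 11005 genes passed and none of the members tested, Fgf14 having -0.48 ± 0.17 (edgeR adjusted p = 0.18). Both Fgf14 and Scn2b had an unadjusted p under 0.05 in that test, and DESeq2 called 2 genes and none of the members tested. Of the listed genes Scn9a passed there (-2.26 ± 0.36). For the maternal environment 0 listed channel or axonal genes were called in pyramidal, PV or SST nuclei, and for housing likewise 0. The study also asked what isolation from weaning does. Isolation gave no call among the 9 genes in pyramidal nuclei, or among the 8 tested in PV and SST nuclei. Over all genes 0% passed in pyramidal nuclei (172 at an unadjusted p under 0.05, 0 in DESeq2), 0% in PV nuclei (164 unadjusted, 0 in DESeq2) and 0.00999% in SST nuclei (1 gene, 0 in DESeq2). In pyramidal nuclei the log2 fold changes of SI over GH were 0.30 ± 0.27 for Scn4b, 0.18 ± 0.11 for Scn3b and 0.14 ± 0.13 for Fgf14, with -0.07 to 0.04 for the rest. Fgf14 had log2 ratios of SI over GH of 0.11 in Run and 0.15 (95% interval 0.13 to 0.18) in Sed, and was higher in SI in 9 of 11 subclasses in each. No difference of the maternal effect by housing was called for the 9 genes in pyramidal nuclei (0% of 18709 genes passed, 58 at an unadjusted p under 0.05, 0 in DESeq2). The same held for the members tested in PV nuclei (0.0273% of 11005 genes passed, 3 genes, 0 in DESeq2). With 2 residual degrees of freedom, and 1 with an interaction, a missed threshold does not show that levels were alike.

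**Figure D5:**
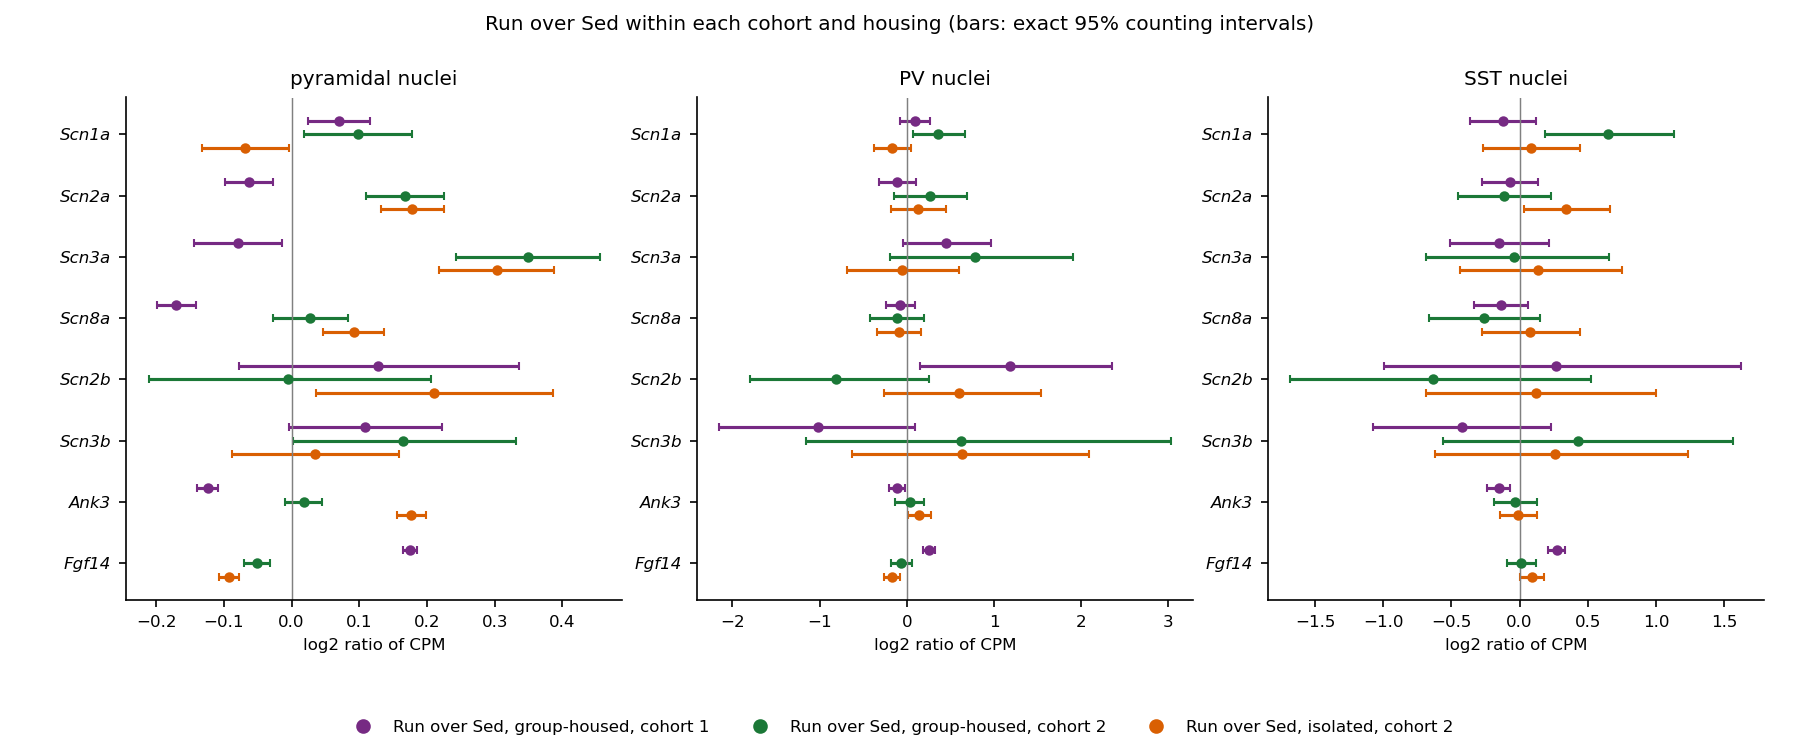
Log2 ratio of Run over Sed for 8 of the genes (Scn4b, with few UMIs, is left out) in pyramidal, PV and SST nuclei, for the GH pair of cohort 1 and the GH and SI pairs of cohort 2, with exact 95% intervals that cover counting error only. In pyramidal nuclei Fgf14 lies above 0 in cohort 1 and below it in cohort 2, and Scn3a the other way round.

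The genes whose levels over the 16 classes and 6 libraries were most like those of each member were ranked by Pearson's r of log2(CPM + 1) over 96 points, which share libraries and depth and are given as a description. Scn1a was most like the RNA transport gene Stau2 (r = 0.850), the long noncoding RNA Meg3 (0.845) and the postsynaptic scaffold gene Dlgap1 (0.835). Scn2a was most like A230006K03Rik (0.866), the NMDA receptor subunit Grin1 (0.862) and the RNA-binding protein gene Celf4 (0.837). Scn8a had Osbpl10 (0.890), Zfyve28 (0.845) and Ksr2 (0.837). Scn3a had Dpf1 (0.854), Zkscan16 (0.812) and Zdhhc2 (0.759), and Scn3b had Zkscan16 (0.872), Dvl2 (0.818) and Mok (0.782). Ank3 was most like Hecw2 (0.845), Anks1b (0.823) and Pde4dip (0.821), and Fgf14 like Cdr1os (0.830) and Ica1 (0.819). The low counts of Scn2b and Scn4b gave highest values of 0.651 (Caly) and 0.508 (Slc35f3). Between members the highest values were those of Scn2a with Ank3 (0.812), Scn2a with Fgf14 (0.753), Scn8a with Fgf14 (0.694), Ank3 with Fgf14 (0.676) and Scn3a with Scn3b (0.673).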

How the data were processed

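Single-nucleus libraries were made with the 10x Chromium V3 kit, which counts the ends of transcripts by strand, and the deposited files hold raw UMI counts per gene and barcode, which the authors made with Cell Ranger 6.0.0 (per the labels; the file headers name another version) on mm10 with introns. Barcodes above a UMI minimum set per library (621 to 3156), with 500 to 4000 genes and at most 1% mitochondrial UMIs, were kept. Nuclei were clustered with scanpy 1.11.5 (3000 genes, 35 components, 20 neighbors, Leiden resolution 0.6) without the members and listed genes, and the naming rule was adjusted after the clusters were seen. Doublets marked (56 to 671 a library) were removed as an alternative only. Counts were summed per library and class and tested with edgeR 4.0.16 (quasi-likelihood, TMM, R 4.3.3) with terms for cohort, maternal environment and housing, or with the library as block between classes, and p-values were Benjamini-Hochberg adjusted over all genes at 0.05. DESeq2 1.42.0 was an alternative. Fits were tested on simulated data. CPM values are counts-per-million of the class sum, and intervals cover counting error only. No statistic treats nuclei as replicates. P-values for cohort, maternal environment and housing measure the spread between pooled libraries. Those between classes measure the spread over libraries of the difference within a library. For the interaction with cohort they hold no spread between libraries of cohort 1.

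The members and gene lists were chosen with earlier results of these data known. All members are named, and listed genes where they passed or were the extremes of a list. Like genes were the 3 with the highest r among genes above a mean of 10 CPM. Subtraction of background droplets and scaling by total UMIs were added after the data were seen. The cohort label pairs the libraries: deviations of Run GH and Sed GH libraries from their group means correlated between groups at 0.809 over 8682 genes (pyramidal), 0.653 over 8738 (PV) and 0.631 over 8715 (SST). Some genes of the lists are not reported here.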

Additional observations from a re-analysis of the deposited data

Results flagged for a closer look

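The maternal effect on Fgf14 in pyramidal nuclei differed between the cohorts by a test of the difference itself, with an interaction of -0.3755 on the log2 scale (edgeR adjusted p = 0.013). Run was above Sed in the 1 pair of cohort 1 and below it in both pairs of cohort 2. The fit takes up the pair of cohort 1 exactly, so the p-value holds no spread between libraries of that cohort. Choice by rank may go with Run and Sed in that pair, and the 2 cannot be told apart. The share of UMIs from long genes also differed between Run and Sed, as given above, and its part was not tested. Over the alternatives the interaction lay between -0.44 and -0.25 and was called in 6 of 9. It was not called in DESeq2 (-0.36, adjusted p = 0.45), after thinning to 1000 UMIs (-0.40, edgeR adjusted p = 0.057) or with scaling by total UMIs (-0.25, edgeR adjusted p = 0.10).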

How the results depend on the processing

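No called difference changed its sign in any alternative. Of 1868 values of single members under alternatives, 1794 kept their side of the threshold, 60 lost it and 14 gained it, and 150 values without a call changed sign. For the cohort difference in PV nuclei the 3 members called became 0 in DESeq2, after thinning to 1000 UMIs, with either subtraction of free RNA and with scaling by total UMIs, became 1 with no upper limit on genes, and ranged from 0 to 4 when 1 library was left out. In pyramidal nuclei the 5 members called for cohort ranged from 2 to 7 in such fits, and the 0 called for the maternal environment from 0 to 1. OPC against oligodendrocytes went from 2 to 1 in DESeq2 and ranged from 1 to 3. The maternal effect by cohort went from 1 member to 0 in pyramidal nuclei (DESeq2, thinned, total UMIs) and from 0 to 1 in PV nuclei (background droplets subtracted). No library could be left out of the fits with an interaction, which would have had no residual degrees of freedom.

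Without the replicate block (cohort) 0 members were called for maternal environment and housing in pyramidal, PV and SST nuclei, and the genes called for the maternal environment went from 9 to 0 in PV and from 8 to 0 in SST nuclei. Counts over all genes ranged from 0 to 2979 for the maternal environment in pyramidal nuclei (0 as reported), and moved for the cohort in pyramidal (6865, 3049 to 9291) and PV nuclei (2751, 920 to 3163), and for the maternal effect by cohort (2234, 405 to 2495, pyramidal). Counts for class contrasts ranged from 5103 to 9052 (inhibitory, 8011), 1268 to 2998 (PV against SST, 2875), 3507 to 6488 (layers, 6106) and 656 to 1467 (OPC, 1409), and those for PV and SST nuclei from 0 to 131 and 0 to 88 (maternal environment), with up to 64 genes for housing in pyramidal nuclei.

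Thinned log2 ratios differed by more than the counting interval for Run over Sed in GH of cohort 1 for Scn1a (0.12), Scn3b (-0.0768) and Fgf14 (0.16), in GH of cohort 2 for Scn2a (0.11) and Scn4b (1.30), and in SI for Scn2a (0.25), Scn4b (-0.10), Ank3 (0.11) and Fgf14 (-0.12). The same held for SI over GH in Run for Scn2a (0.0833) and Fgf14 (0.10) and in Sed for Scn4b (1.53) and Ank3 (-0.0092). Depth limits Scn4b and Scn2b in the small classes.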
